A study of Mus musculus with 3 samples.

Results

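Transcripts of 7 receptors of the LDL-receptor and sortilin families were followed in mouse adipose fibroblasts exposed to oncostatin M (Osm) or transforming growth factor beta 1 (TGF-beta1). The LDL-receptor family was represented by 4 genes, Lrp1, Lrp2, Lrp8 and Vldlr, and the sortilin family by 3, Sort1, Sorl1 and Sorcs2. They were chosen by gene name among the protein-coding genes of a table of 56748 genes, and all 7 were found. The list was drawn up with the ratios between these same libraries known, so every value below is a description and no test was made of it.

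The fibroblasts came from the visceral fat of wild-type (WT) mice on a high-fat diet. They were the part of the stromal vascular fraction that a magnetic sort found negative for CD45, CD31 and Ter119, the surface markers of leukocytes, endothelium and red cells. The Osm group received recombinant mouse Osm at 3 ng/mL for 24 h, and the TGF-beta1 group recombinant human TGF-beta1 at 3 ng/mL for 24 h. The vehicle group is labelled Control, with no time given, and all 3 groups share genotype, diet and sort. Each group was a single library, so differences between libraries cannot be told apart from the treatments. The sources used here give neither the age and sex of the mice nor whether animals were pooled.

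LDL-receptor family proteins are cell-surface receptors that bind ligands through cysteine-rich repeats, carry them into the cell and release them in endosomes. Their ligands include proteases bound to inhibitors, lipoproteins and matrix proteins, and some members also pass on signals such as that of reelin. Sortilin family proteins share a Vps10p domain and mostly sort cargo between the Golgi, endosomes and the cell surface, lipoprotein lipase, progranulin and pro-neurotrophins among it.

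Read totals were 18336068 for vehicle, 17319872 for Osm and 18533741 for TGF-beta1. Levels are given as CPM, read counts scaled to library size with TMM factors, where libraries are compared for a gene. The authors' FPKM values, which also divide by gene length, are used where genes are compared with each other. The intervals in brackets are exact 95% intervals for counting error alone. A count of 0 was given a floor of 3 reads, or 0.163, 0.173 and 0.163 CPM, where the exact interval reaches 0.200, 0.213 and 0.200 CPM. Of the check genes, Socs3, a gp130 feedback gene, was at 54.3, 87.1 and 54.5 CPM, and Acta2, the smooth muscle actin gene, at 446, 422 and 1327 CPM with vehicle, Osm and TGF-beta1. Col1a1, the collagen I gene, was at 4285, 4023 and 8039 CPM. The 8 fibroblast markers summed to between 19607 and 22514 CPM in the 3 libraries. Single markers in this sum went both ways with TGF-beta1: Col1a1 was 1.88-fold higher, while Dcn was 2.41-fold and Pdgfra 1.62-fold lower. All 4 erythroid markers were at 0, Lep and Plin1 were at 0 among the 5 adipocyte markers, which summed to at most 0.38 CPM, and Ptprc, the CD45 gene, did not exceed 0.115 CPM. The 5 Schwann cell markers summed to 1.85, 0.922 and 1.41 CPM, with Sox10 at 0.

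A gene was called different where its CPM ratio was at least 2-fold and the counting interval left out a ratio of 1, among the 13712 genes that reached 1 CPM in at least 1 library. Of the 7 receptors 6 were tested, and Sorl1 was not. With TGF-beta1 against vehicle, Sorcs2 and Lrp2 were called higher, 2 of 6, and Sort1 lower, 1 of 6. Over all tested genes 2.27% were called higher and 4.79% lower in that comparison. With Osm against vehicle, Sorcs2 was called higher and Lrp2 lower, 1 of 6 each, where 0.948% of tested genes were higher and 0.649% lower. With Osm against TGF-beta1, Sort1 was called higher and both Lrp2 and Sorcs2 lower, where 5.07% of tested genes were higher and 2.42% lower. These calls were known when the list was chosen, so nothing is read from their number. Both Osm calls against vehicle were lost with the authors' FPKM and a pseudocount of 0.1, and when the interval itself had to lie past 2-fold. The call of Sort1 between the ligands was lost under the latter rule. In a bulk library, fewer cells of a type and less RNA per cell cannot be told apart. Lrp1, Lrp8 and Vldlr were within 1.17-fold in each of the 3 comparisons. The comparisons share libraries and are not independent of each other.

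**Figure D1:**
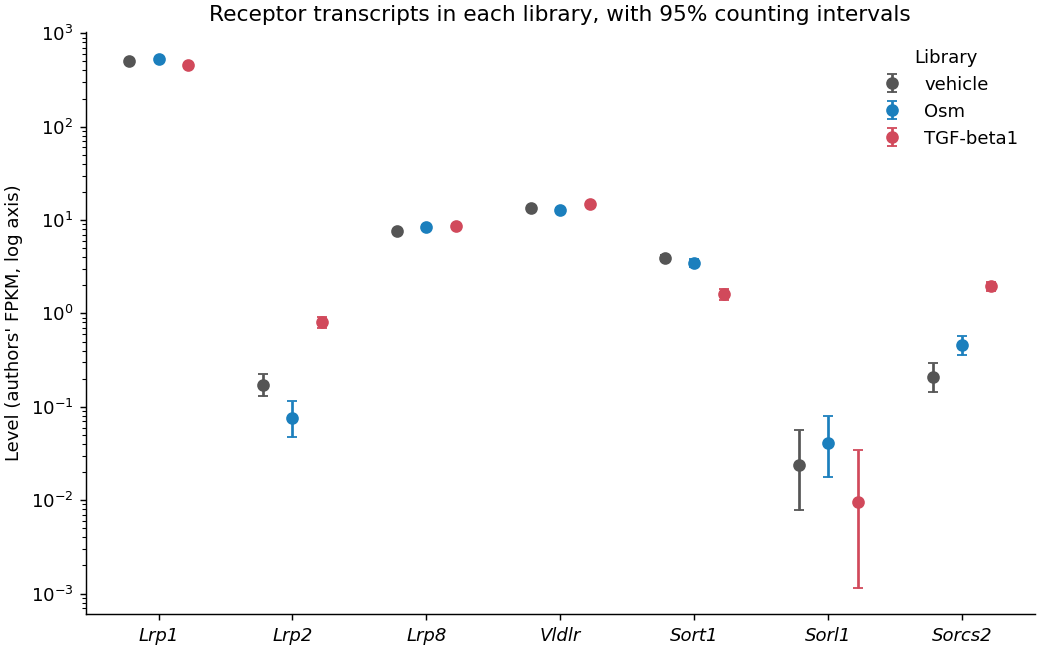
Level of each receptor in each library (points, the authors' FPKM on a log axis), with exact 95% counting intervals as bars, 1 library per condition. Lrp1 lay between 458 and 532 FPKM, far above the rest, while Sorcs2 and Lrp2 were highest and Sort1 lowest in the TGF-beta1 library.

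Sequence upstream of the start site could be shown for 5 of the 7 receptors, from RefSeq on build GRCm38.p6, an earlier build than the mm39 of the count table. The window of Lrp2 is printed because it was the only one of these 5 genes called different, and that of Lrp1 because it was the most abundant and differed little. Each runs from 250 bases before the start site to 50 after it, and capitals mark CAGAC on either strand (GTCTG when read on the other), the core that Smad proteins can bind.
Lrp2, minus strand, chr2:69585980-69586279: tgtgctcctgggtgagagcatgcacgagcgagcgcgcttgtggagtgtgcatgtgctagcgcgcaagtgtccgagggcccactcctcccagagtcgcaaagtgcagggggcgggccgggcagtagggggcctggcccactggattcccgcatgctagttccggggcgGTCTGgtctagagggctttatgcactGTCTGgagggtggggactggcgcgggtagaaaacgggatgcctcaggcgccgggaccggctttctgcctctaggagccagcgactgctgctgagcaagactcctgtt
Lrp1, minus strand, chr10:127621099-127621398: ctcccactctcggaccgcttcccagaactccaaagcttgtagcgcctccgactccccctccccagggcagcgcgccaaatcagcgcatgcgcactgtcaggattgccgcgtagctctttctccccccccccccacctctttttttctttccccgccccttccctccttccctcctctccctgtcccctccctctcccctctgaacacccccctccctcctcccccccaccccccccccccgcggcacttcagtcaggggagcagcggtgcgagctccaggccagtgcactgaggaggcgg

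The Lrp2 window held 2 matches to CAGAC, both on the opposite strand, with their first base at -83 and -57 from the start site, and the Lrp1 window held none. This core is common: 49.6% of 32851 promoter windows of the same length held at least 1 match, and 16.2% held 2 or more. Windows of Lrp8, Vldlr and Sorl1, of which RefSeq gives 3, 2 and 2, held at most 1 each. TTCNNNGAA, a spacing that Stat proteins can bind, was found in the Lrp1 window once, at -232 from the start site, and in 1 Sorl1 window, against 8.30% of all windows. TGANTCA (the AP-1 motif, 7.81% of windows) and TCACNCCAC (a sterol regulatory element, 1.24%) were found in none of the 9 windows. The 4 motifs were searched on both strands, and a match is a string of letters, not a bound site.

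Lrp1 encodes the large endocytic receptor that clears protease-inhibitor complexes, apolipoprotein E remnants and thrombospondins. It is on chromosome 10, 127374030 to 127457017 on the minus strand of mm39 (ENSMUSG00000040249). It was at 8937 CPM (8893 to 8980) with vehicle, 9460 CPM (9414 to 9506) with Osm and 8105 CPM (8064 to 8146) with TGF-beta1. The Osm library was thus the highest and the TGF-beta1 library the lowest, with counting intervals that did not overlap. By read count Lrp1 ranked 2, 2 and 3 among all genes, and by FPKM, at 505, 532 and 458, it ranked 48, 40 and 55. It was 1.06-fold higher with Osm (1.05 to 1.07) and 1.10-fold lower with TGF-beta1 (1.09 to 1.11). Each library held at least 149398 Lrp1 reads, which makes the intervals narrow, and ratios of this size were common: 30.9% of tested genes had an Osm ratio as high or higher, and 33.4% a TGF-beta1 ratio as low or lower. Lrp1 made up 95.2%, 95.5% and 94.3% of the 7 receptors' summed FPKM.

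Lrp2 encodes megalin, a very large endocytic receptor best known from absorptive epithelia such as the kidney tubule. The gene lies on chromosome 2, 69254684 to 69416409, minus strand (ENSMUSG00000027070). It had 53 reads with vehicle, 22 with Osm and 246 with TGF-beta1, or 2.88 CPM (2.16 to 3.77), 1.27 CPM (0.794 to 1.92) and 13.3 CPM (11.7 to 15.1). The 3 intervals did not overlap, with TGF-beta1 highest and Osm lowest. Against vehicle it was 4.60-fold higher with TGF-beta1 (3.43 to 6.36) and 2.24-fold lower with Osm (1.36 to 3.92), and between the ligands 10.3-fold lower with Osm (6.80 to 17.1). Of the tested genes 0.284% had a TGF-beta1 ratio as high or higher. The Osm ratio rests on few reads. Of the 2891 tested genes that were between 1 and 5 CPM in the higher of those 2 libraries, 3.91% were called higher with Osm and 2.77% lower, against 0.0547% and 0.0274% of the 7310 at 20 CPM or more. These level classes were set after the values were seen.

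Megalin works with cubilin, the product of Cubn, a partner receptor that has no membrane span of its own. Cubn was at 1.79, 2.94 and 4.07 CPM with vehicle, Osm and TGF-beta1, 2.25-fold higher with TGF-beta1 (1.49 to 3.53) and 1.63-fold higher with Osm (1.04 to 2.62). Cubn and Lrp2 were thus both called higher with TGF-beta1, while with Osm Cubn lay above vehicle and Lrp2 below it. Amn, which anchors cubilin in the membrane, stayed between 0.597 and 1.09 CPM. Of the 5 partner genes of megalin 1 was called higher and none lower with TGF-beta1, with a median log2 ratio of -0.20. All tested genes had 2.27% called higher and 4.79% lower in that comparison. Cubn lay between 1 and 5 CPM in the higher of those 2 libraries, where 6.68% were called higher. Dab2, an endocytic adaptor of the megalin tail, was 1.44-fold lower (1.34 to 1.54), and Ap2a1, a clathrin adaptor subunit, was at 142, 158 and 154 CPM.

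Mesothelial cells, which line visceral fat and can express epithelial genes, were checked beside Lrp2. Of the 9 mesothelial markers 6 were tested, and Krt19 and Upk1b were called higher with TGF-beta1, at 0.652 and 1.52 CPM and at 0.870 and 1.79 CPM with vehicle and TGF-beta1. Both reached 1 CPM in the TGF-beta1 library alone, where they were highest, so the filter favoured these calls and their number is no support for a difference. The summed level of the 9 markers was 43.4, 42.3 and 52.2 CPM with vehicle, Osm and TGF-beta1, of which Wt1 alone gave 37.1, 36.1 and 43.4 CPM. No marker was at 0 in all 3 libraries, and the defining markers Msln and Upk3b were at 0.543, 0.288 and 0.597 CPM and at 1.36, 1.09 and 1.19 CPM. Their part in the Lrp2 values was not tested.

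Lrp8 and Vldlr encode the reelin receptors, which are smaller than Lrp1, signal through the adaptor Dab1 in neurons, and also bind apolipoprotein E. Lrp8 (apolipoprotein E receptor 2) is on chromosome 4, 107659066 to 107734037, plus strand (ENSMUSG00000028613). Lrp8 was at 95.7 CPM (91.3 to 100) with vehicle, 107 CPM (103 to 112) with Osm and 111 CPM (106 to 116) with TGF-beta1. Vehicle was lowest, and the intervals of the 2 ligand libraries overlapped. Lrp8 was 1.12-fold higher with Osm (1.05 to 1.20) and 1.16-fold higher with TGF-beta1 (1.08 to 1.23), both short of the 2-fold rule. Vldlr, the very low density lipoprotein receptor gene (chromosome 19, 27193884 to 27231631, plus strand, ENSMUSG00000024924), was at 134 CPM (129 to 140), 130 CPM (124 to 135) and 147 CPM (142 to 153). Its TGF-beta1 level was 1.10-fold higher than vehicle (1.04 to 1.16), and its Osm level was 1.03-fold lower with an interval on both sides of equality (0.976 to 1.09).

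Transcripts of the ligand reelin and of the adaptor Dab1 were scarce. Reln, which encodes reelin, was at 1.30, 0.634 and 3.69 CPM with vehicle, Osm and TGF-beta1, 2.79-fold higher with TGF-beta1 (1.75 to 4.71). With Osm it was 2.01-fold lower, but the interval of 0.970 to 4.65 held equality, so it was not called. Dab1 was at 0 CPM with vehicle and TGF-beta1 and at 0.0576 CPM with Osm, under the level that 3 reads give. The related adaptor Dab2 was at 105, 112 and 73.2 CPM.

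Sort1 encodes sortilin, which carries lipoprotein lipase, progranulin and prosaposin along the secretory and lysosomal routes and in adipocytes takes part in forming the vesicles of the insulin-responsive glucose transporter. The gene is on chromosome 3, 108191398 to 108268827, plus strand (ENSMUSG00000068747). It was at 29.7 CPM (27.3 to 32.3) with vehicle, 26.3 CPM (24.0 to 28.9) with Osm and 12.2 CPM (10.6 to 13.9) with TGF-beta1, from 547, 457 and 224 reads. The vehicle and Osm intervals overlapped, and the TGF-beta1 library lay below both. Sort1 was 2.44-fold lower with TGF-beta1 than with vehicle (2.09 to 2.87). With Osm it was 1.13-fold lower than vehicle (0.995 to 1.28), a difference within counting error, and 2.16-fold higher than with TGF-beta1 (1.84 to 2.55). A TGF-beta1 ratio as low or lower was found in 2.97% of tested genes. Marker sums of 3 minor cell types were also lower with TGF-beta1, while single markers went both ways. With vehicle, Osm and TGF-beta1 the 8 leukocyte markers summed to 19.1, 16.1 and 15.0 CPM, the 6 endothelial markers to 50.4, 40.7 and 36.3 CPM, and the 6 mural markers to 29.4, 31.2 and 20.2 CPM. Of those tested, 1 of 3 (Cd68), 1 of 2 (Cdh5) and 1 of 4 (Abcc9) were called lower with TGF-beta1, as was Dcn among the 8 fibroblast markers. The share called lower over all tested genes was 4.79%. It was 12.4% for genes between 1 and 5 CPM in the higher of the 2 libraries, where Cdh5 and Abcc9 lay. Cdh5 reached 1 CPM only with vehicle and Osm. Csf1r, a leukocyte marker near the level of Cd68, was at 8.48, 8.41 and 10.2 CPM, 1.20-fold higher with TGF-beta1 and within counting error. Kdr and Pecam1 of the endothelial list, neither of them tested, were at 0.272, 0.230 and 0.651 CPM and at 0.109, 0.173 and 0.271 CPM. Cd3e and Cldn5 were at 0 in all libraries, and Tek alone gave 48.5, 38.9 and 34.4 CPM of the endothelial sum. Their part in the Sort1 values was not tested. Of its 50-base windows 3.81% also occur in Gm12523, a noncoding gene on the opposite strand that had 1, 3 and 0 reads.

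Sorcs2 encodes a sortilin family receptor of the cell surface, known mostly from neurons, where it binds pro-neurotrophins together with the receptor p75NTR. It is on chromosome 5, 36174524 to 36555483, minus strand (ENSMUSG00000029093). It had 34 reads with vehicle, 70 with Osm and 315 with TGF-beta1, or 1.85 CPM (1.28 to 2.58), 4.03 CPM (3.14 to 5.10) and 17.1 CPM (15.3 to 19.1). The 3 intervals did not overlap, and the order was vehicle, Osm, TGF-beta1. It was 9.13-fold higher with TGF-beta1 (6.48 to 13.6), and 0.0802% of tested genes had a ratio as high or higher. With Osm it was 2.17-fold higher than vehicle (1.43 to 3.39), at a level where calls were more frequent, as given above for Lrp2. The Osm level was 4.21-fold lower than that with TGF-beta1 (3.26 to 5.57). None of its 50-base windows occurs in another annotated transcript. Psapl1 and Mir7689, which overlap Sorcs2 on the opposite strand, had no read.

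Sorl1, the sorting receptor for the amyloid precursor protein (chromosome 9, 41876016 to 42035593, minus strand, ENSMUSG00000049313), was near the detection limit. It had 5, 8 and 2 reads with vehicle, Osm and TGF-beta1, or 0.272 CPM (0.0882 to 0.634), 0.461 CPM (0.199 to 0.908) and 0.109 CPM (0.0131 to 0.392). All 3 intervals overlapped, and a difference was not detectable at this depth. The remaining sortilin family genes were no more abundant: Sorcs1 had no read in any library and Sorcs3 reached 0.0576 CPM in the Osm library alone.

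**Figure D2:**
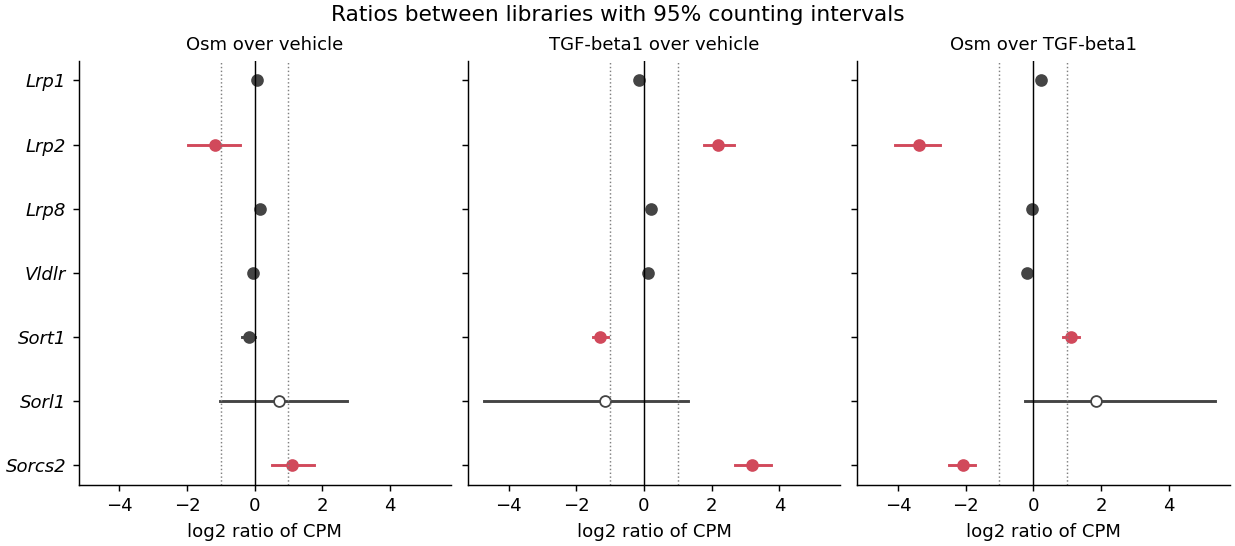
log2 ratio of CPM for each receptor in the 3 comparisons (points) with exact 95% counting intervals (lines); dotted lines mark 2-fold, red marks genes called different, and the open circle is Sorl1, which was not tested. Lrp2 lay at -1.17 with Osm and 2.20 with TGF-beta1, Sorcs2 at 1.11 and 3.19, and Sort1 at -0.17 and -1.29.

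On the per-length scale of FPKM the order with vehicle was Lrp1 at 505, Vldlr at 13.3, Lrp8 at 7.55, Sort1 at 3.93, Sorcs2 at 0.210, Lrp2 at 0.173 and Sorl1 at 0.0240. Sorcs2 and Lrp2 were not distinct in that library, with FPKM intervals of 0.145 to 0.294 and 0.129 to 0.226. With Osm the order was the same down to Sorcs2 at 0.457 FPKM, while Lrp2 at 0.0756 (0.0474 to 0.115) overlapped Sorl1 at 0.0406 (0.0175 to 0.0799). With TGF-beta1 Sorcs2 at 1.95 FPKM (1.74 to 2.17) stood beside Sort1 at 1.61 FPKM (1.40 to 1.83), with overlapping intervals, and Lrp2 was at 0.801 FPKM. The makeup of the sortilin transcripts therefore differed between libraries. Sort1 was 94.4%, 87.5% and 45.1% of the summed FPKM of Sort1, Sorl1 and Sorcs2 with vehicle, Osm and TGF-beta1, and Sorcs2 was 5.04%, 11.5% and 54.6%. The sum itself was 4.16, 3.96 and 3.56 FPKM. Without Lrp1, the summed FPKM of the LDL-receptor members was 21.0, 21.4 and 24.2.

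The genes closest to each tested receptor in their pair of log2 ratios over vehicle were taken from a pool of 9109 genes, protein-coding and at 10 CPM or more in 1 library or more. Likeness is the distance between the 2 pairs on the log2 scale, over 3 libraries. Nearest to Sorcs2 were Pdgfc, a growth factor gene, at a distance of 0.671, then Cthrc1 at 1.055 and Ncam1 at 1.137. The log2 ratios of Pdgfc were 0.60 with Osm and 2.76 with TGF-beta1, against 1.11 and 3.19 for Sorcs2. Both Pdgfc ratios lay inside the counting intervals of Sorcs2, 0.52 to 1.76 with Osm and 2.70 to 3.76 with TGF-beta1. Cthrc1 and Ncam1 lay inside the TGF-beta1 interval, at 3.17 and 2.85, but below the Osm interval, at 0.06 and 0.03. Lrp2 was nearest to Cilp (0.555), a cartilage matrix gene at 353, 199 and 1198 CPM, then Col8a2 (0.671) and Mfap4 (0.691), both matrix genes. Pdgfc, Cthrc1 and Col8a2 entered the pool only through the TGF-beta1 library, where they were highest. Sort1 lay much closer to its neighbours, Dcn (0.021), Scn7a (0.041) and Gem (0.053). Dcn, the decorin gene and a fibroblast marker, went from 1984 CPM with vehicle to 1757 with Osm and 824 with TGF-beta1, 2.41-fold lower with TGF-beta1. Lrp1 was nearest to Foxc1, Zfand5 and Usp20, Lrp8 to Rai1, Topbp1 and Nvl, and Vldlr to Dhrs7, Cmpk1 and Dot1l, all at distances of 0.009 or less in the dense centre of the distribution. Mfap4 and Rai1 each overlap a gene on the opposite strand, Mapk7 (43.6 CPM with vehicle) and Srebf1 (366 CPM), and Ncam1 overlaps the low Gm11149.

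**Figure D3:**
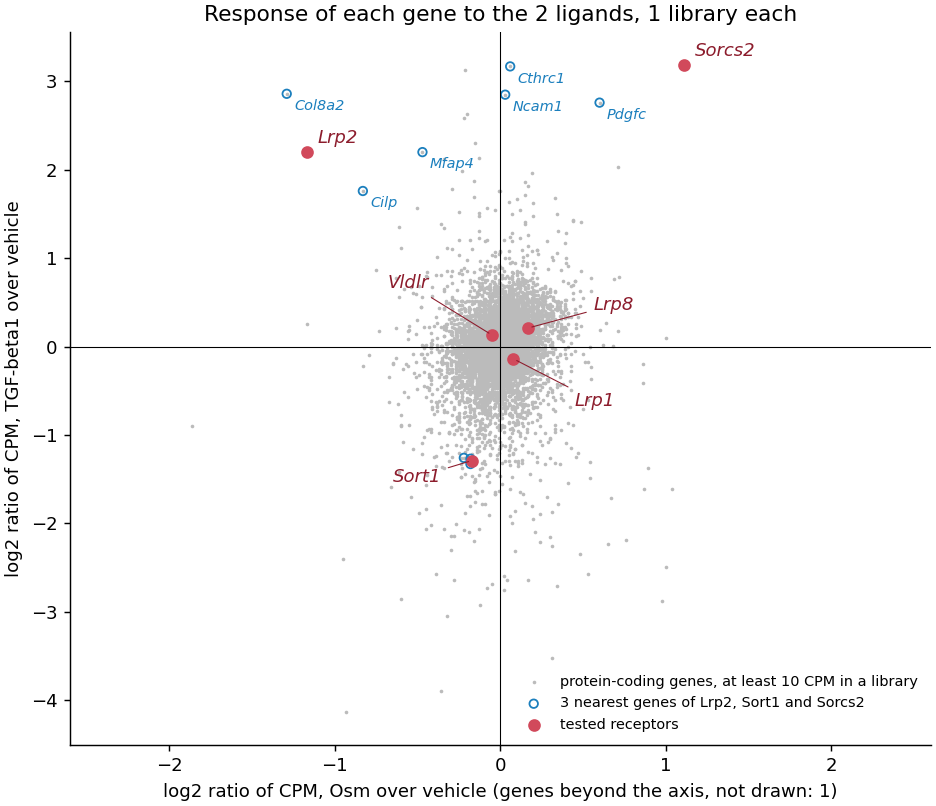
log2 ratio of CPM over vehicle with Osm (x axis) and TGF-beta1 (y axis) for 9121 protein-coding genes (grey), the tested receptors (red) and the nearest genes of Lrp2, Sort1 and Sorcs2 (blue rings); 1 gene lies beyond the x axis. Lrp1, Lrp8 and Vldlr sit in the centre, Lrp2 at the upper left, Sorcs2 at the upper right and Sort1 below the centre, beside Dcn.

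Other LDL-receptor family genes were mostly like Lrp8 and Vldlr. Of 13, 10 were tested, none was called with Osm, and with TGF-beta1 only Lrp3 was called, lower. Lrp3 was at 48.0, 63.2 and 22.6 CPM with vehicle, Osm and TGF-beta1, 2.13-fold lower with TGF-beta1 (1.89 to 2.40) and 1.32-fold higher with Osm (1.20 to 1.44). The median log2 ratio of the 10 was 0.02 with Osm and 0.04 with TGF-beta1, against 0.00 and 0.01 over all tested genes. Lrp6, a Wnt co-receptor, was 1.24-fold lower with TGF-beta1 (1.19 to 1.30). None of the 13 sterol-responsive genes was called in either comparison with vehicle, with medians of 0.00 and 0.06. Insig1 among them was at 702, 686 and 797 CPM.

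Several ligands of the receptors were lower with TGF-beta1 than with vehicle. Of 22 ligand genes of LDL-receptor family receptors 19 were tested, 3 were called higher and 7 lower with TGF-beta1, and none was called with Osm. Over all tested genes 2.27% were called higher and 4.79% lower with TGF-beta1. The ligands' median log2 ratio was -0.82 with TGF-beta1 and 0.01 with Osm, against 0.01 and 0.00 over all tested genes. Mmp13 and Reln were among those called higher, and those called lower were Plau, Apoe, Lpl, Serpine2, C3, Clu and Mdk. Plau, the gene of the protease urokinase, was at 430, 385 and 93.3 CPM with vehicle, Osm and TGF-beta1, 4.61-fold lower with TGF-beta1 (4.37 to 4.86). Apoe, the lipoprotein ligand that Lrp1, Lrp8 and Vldlr share, was at 398, 349 and 92.9 CPM, 4.28-fold lower (4.06 to 4.51). Thbs2, a thrombospondin cleared by Lrp1, was at 3378, 3402 and 1828 CPM, 1.85-fold lower with TGF-beta1 (1.82 to 1.87), short of the rule. Other abundant ligands that were not called went the other way: Thbs1, another thrombospondin gene, was at 1569, 1461 and 2040 CPM, 1.30-fold higher with TGF-beta1 (1.28 to 1.32). Hspg2, the perlecan gene, was 1.38-fold higher (1.36 to 1.40), and Calr, the calreticulin gene, 1.28-fold higher (1.26 to 1.30). Serpine2, a protease inhibitor gene, was at 693, 708 and 281 CPM, and C3, the complement component, at 868, 901 and 371 CPM. Mmp13, Reln and Clu were each under 4 CPM in all 3 libraries. Of genes between 1 and 5 CPM in the higher library, as these were, 6.68% were called higher and 12.4% lower with TGF-beta1 against vehicle. With Osm over TGF-beta1, 6 of the 19 were called higher and 3 lower, where 5.07% and 2.42% of all tested genes were. Between 1 and 5 CPM, where Clu, Reln and Mmp13 again lay, the shares in that comparison were 13.6% and 6.62%.

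Of 15 sortilin ligands and neurotrophin receptors 10 were tested, 3 were called lower and none higher with TGF-beta1, and none was called with Osm. The 3 were Lpl, Gdnf and Ntf3. Lpl, Psap and Grn, the progranulin gene, are also counted among the ligands above, so the lists and their medians are not separate observations. Over all tested genes 4.79% were called lower with TGF-beta1, and 12.4% of those between 1 and 5 CPM in the higher of the 2 libraries, where Gdnf lay. Ntf3 reached 1 CPM in the Osm library alone. The median log2 ratio of the 10 was -0.73 with TGF-beta1 and 0.13 with Osm. Lpl, the triglyceride lipase that Sort1 transports and that Lrp1 and Vldlr bind, was at 1523, 1503 and 571 CPM, 2.67-fold lower with TGF-beta1 (2.61 to 2.73). Ntf3, a neurotrophin gene, was at 0.706 and 1.09 CPM with vehicle and Osm and at 0 with TGF-beta1, at least 4.34-fold lower than vehicle when the floor of 3 reads is used. The exact interval, which also takes in the counting error of the 13 vehicle reads, has its lower end at 3.05-fold. Gdnf, a neurotrophic factor gene, was at 1.96, 2.65 and 0.868 CPM. Psap, the prosaposin gene, was 1.69-fold lower with TGF-beta1 (1.67 to 1.71), and App was at 1210, 1239 and 1199 CPM. The p75NTR gene Ngfr was at 0.380, 0.749 and 0.271 CPM and was not tested. Ntrk2, the gene of the BDNF receptor TrkB, was at 10.4, 13.1 and 5.48 CPM, called only between the ligands, where it was 2.38-fold higher with Osm (1.88 to 3.05). With Osm over TGF-beta1, 4 of the 10 were called higher and none lower, against 5.07% and 2.42% of all tested genes. Ntf3, 1 of the 4, passed the filter only through the Osm library, where it was highest, so the filter favoured its call. Ntf3 and Gdnf lay between 1 and 5 CPM in the higher of those 2 libraries, where 13.6% were called higher. With Ntf3 in it, the count is no support for a difference of the list.

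The intracellular machinery of these receptors showed no call in either comparison with vehicle. This held for the 12 tested chaperones and adaptors, the 11 turnover regulators and the 16 retromer and sorting genes. Their medians with TGF-beta1 were -0.14, 0.01 and -0.06, and with Osm 0.01, 0.05 and -0.02. Smaller differences with TGF-beta1 went both ways. The adaptor gene Mapk8ip1 was 1.70-fold lower (1.56 to 1.85) and the turnover regulator Mylip 1.68-fold lower (1.49 to 1.90). Dlg4, another adaptor gene, was 1.31-fold higher (1.19 to 1.44). Lrpap1 and Mesd, chaperones that help LDL-receptor family proteins fold and leave the endoplasmic reticulum, were 1.31-fold (1.23 to 1.39) and 1.32-fold (1.24 to 1.40) lower with TGF-beta1. Crk, a signalling adaptor of the reelin pathway, was the list's most abundant gene by FPKM with vehicle and was at 216, 213 and 233 CPM. Furin, the protease that cleaves Lrp1 and sortilin precursors, was at 292, 329 and 268 CPM. Rab7, which recruits retromer, was at 410, 404 and 420 CPM, and Igf2r, another cargo receptor of that route, at 303, 301 and 281 CPM. App, Thbs1, Rab7, Igf2r and Ap2a1 each overlap a gene on the opposite strand that stayed under 14 CPM.

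**Figure D4:**
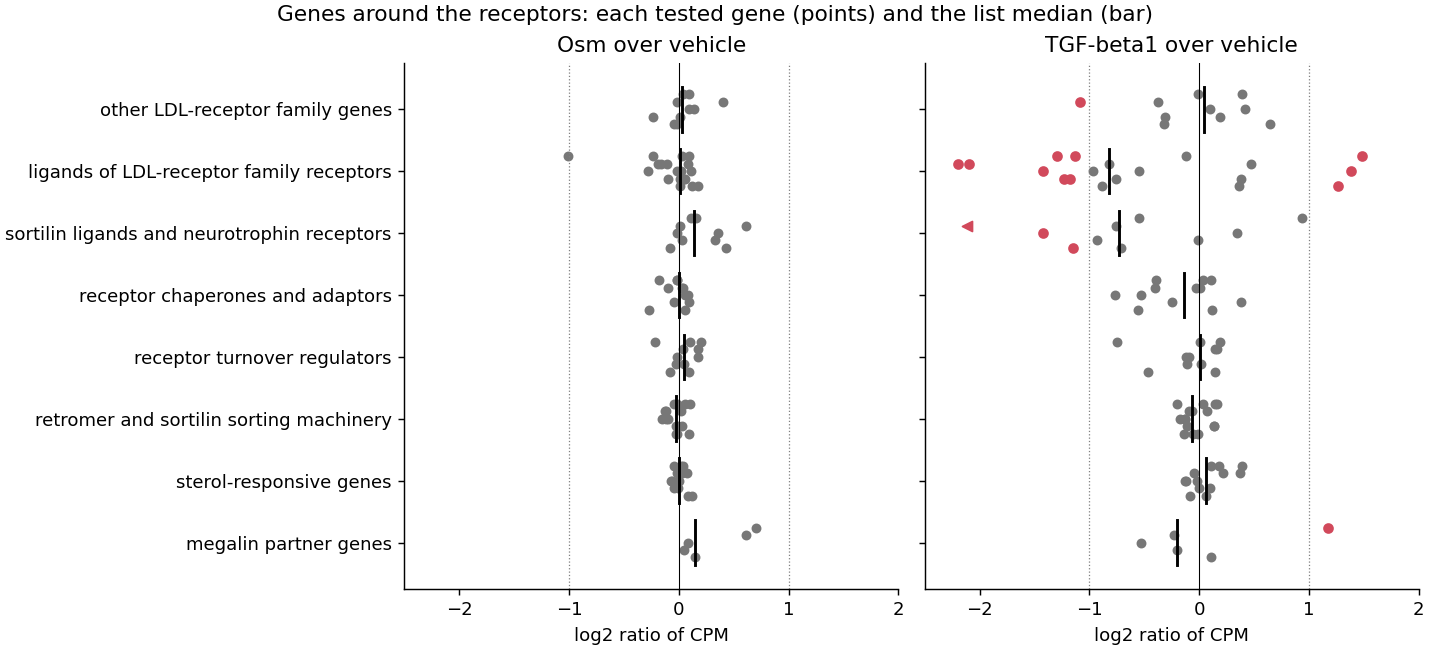
log2 ratio of CPM over vehicle for each tested gene (points) of the 8 lists around the receptors, with the list median (bar); dotted lines mark 2-fold, red marks genes called different, and the triangle is Ntf3, drawn at its bound. With Osm no gene was called, and with TGF-beta1 most of the red points are ligands.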

How the data were processed

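RNA of 3 fibroblast libraries was selected with oligo-dT beads and copied with random primers, per the labels' protocols. These describe libraries with and without strand marking and do not say which kind was made, so reads of genes on opposite strands of a locus cannot be separated. The authors deposited read counts, whole numbers for each Ensembl gene and library, and FPKM values for the same genes. Build mm39 and the tools TopHat2, HISAT, HISAT2 and CASAVA are listed in the submitters' processing notes, with no versions or roles. The sources used here name no read counter and no annotation release.

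Counts were scaled to CPM with TMM factors (1.00, 1.00 and 0.995) from edgeR 4.0.16 in R 4.3.3. Ratios used a prior count of 0.5, and intervals of ratios were exact (conditional binomial, Clopper-Pearson) and those of levels exact Poisson, computed with Python 3.11.15, numpy 2.4.6, scipy 1.17.1 and pandas 2.3.3 and drawn with matplotlib 3.10.9. The protocols describe no molecular identifiers, and intervals cover counting error only. With 1 library per condition there is no replicate error, and p-values were not computed. The ratio and interval code was tested on simulated data with known ratios. A count of 0 was given a floor of 3 reads. All genes were tested together at 1 CPM or more in at least 1 library.

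The receptors, the 10 pathway lists and the 8 lists of cell type markers were chosen with earlier results of these data known. Named genes were all 7 receptors, every list gene that was called, the 2 most abundant tested genes of each list, and the 3 nearest genes of each tested receptor; Lrpap1, Amn, Dab1, Ngfr, Thbs1, Hspg2, Calr and some markers were named for their role after their values were seen, and some genes that the rule names are not reported here. Shared 50-base windows were looked up in GENCODE M21 transcripts, and overlaps in the deposited coordinates. Alternatives were the size factors of DESeq2 1.42.0, library totals, the authors' FPKM with a pseudocount of 0.1, a prior count of 2, other low-count filters and a stricter 2-fold rule.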

Additional observations from a re-analysis of the deposited data

How the results depend on the processing

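With TGF-beta1 against vehicle, 2 receptors were called higher and 1 lower under each of the 7 alternatives. The Osm calls against vehicle moved under 2 of them: 0 receptors were called higher and 0 lower with the authors' FPKM and a pseudocount of 0.1, which shrinks low genes, and 0 and 0 when the interval itself had to lie past 2-fold. Under that stricter rule 0 receptors were called higher with Osm than with TGF-beta1, where Sort1 had been. Under the 4 alternatives for ratios 80 receptor ratios stayed within their counting interval, 4 moved, and 0 called ratios changed sign. The FPKM pseudocount brought the log2 ratio of Lrp2 with TGF-beta1 over vehicle to 1.72 and the Osm over TGF-beta1 ratio to -2.36.

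Counts over all tested genes moved with the filter. With no low-count filter 237 genes were higher and 231 lower with Osm than vehicle, and with FPKM 56 were lower. At 10 CPM or more in a library, where fewer genes are tested, 7 were higher and 7 lower with Osm, 93 and 228 with TGF-beta1, and 225 and 107 with Osm over TGF-beta1. Under the stricter rule the pairs were 13 and 5, 116 and 252, and 253 and 125. No paired analysis was possible because each group has 1 library. Depth limits Sorl1, and the vehicle and Osm values of Lrp2 and Sorcs2, to counts of at most 70 reads.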
